A study of Mus musculus with 8 samples.

Results

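Of the 26146 genes in the deposited count table, 9 encode proteins that have been reported as substrates or partners of Jmjd6 in splicing and in the release of paused RNA polymerase II, and their transcripts are described here. They were chosen by symbol, not by how they moved, though earlier results of these data were known: U2af2, U2af1, Luc7l2, Luc7l3, Srsf11, Acin1, Arglu1, Cdk9 and Hexim1. Each symbol had 1 row in the table, and all 9 passed the filter on low counts. The libraries were made from polyA RNA of sorted Lin-Sca1+Kit+ (LSK) cells, the bone marrow fraction that holds haematopoietic stem cells and early multipotent progenitors. Labels name 4 mice as wild type and 4 as Jmjd6 KO, with 1 library per mouse. In the Jmjd6 KO mice a floxed Jmjd6 had been deleted by a Cre active in haematopoietic lineages. The sources used here name neither the Cre driver nor the age of the mice, and leave unsaid whether the wild type mice carried the floxed allele or the Cre.

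Jmjd6 is a 2-oxoglutarate-dependent oxygenase that hydroxylates lysine side chains, and many of its reported targets carry stretches rich in arginine and serine. U2AF65, the product of U2af2, was the first splicing factor described as its substrate. Together with U2AF35, the product of U2af1, it marks the 3′ end of introns for the spliceosome. Jmjd6 has also been linked to P-TEFb, the kinase complex around CDK9 that frees paused polymerase and that HEXIM1 holds inactive on the 7SK RNA. These links were described at the level of proteins. The question put to the counts is whether the messenger RNA of these partners differed between the mice labelled Jmjd6 KO and wild type. Hydroxylation, protein levels and splicing were not measured by gene totals.

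Jmjd6 itself stood at 28.7, 28.1, 30.7 and 27.5 CPM in Jmjd6 KO replicates 1 to 4, against 52.5, 63.7, 54.6 and 63.7 CPM in the wild type ones, where CPM is the usual library-scaled count, here on the TMM-adjusted library size. Every KO library was below every wild type library, and the log2 fold change was -1.03 (SE 0.152, adjusted p = 0.0381 by edgeR's quasi-likelihood test). The fold change stayed between -1.06 and -0.99 with any single library left out, but the call held only without Jmjd6 KO replicate 3; without any 1 of the other libraries the adjusted p was 0.0986 to 0.254 by edgeR. The KO libraries held 49% of the wild type level, so Jmjd6 RNA was lowered in them and not absent. Gene totals cannot tell cells that kept the allele from a transcript still made of undeleted exons, and neither was tested. Jmjd6 shares 172 exon bases with Mettl23, a gene on the opposite strand at 61.5 to 108 CPM, so some of the reads counted for Jmjd6 may belong to it.

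Total counts were between 9344779 and 15079960 per library. Wild type replicate 4 and Jmjd6 KO replicate 3 had 0 Y-linked counts and carried Xist, at 1550 and 893 CPM, and the other 6 libraries had no more than 4.93 CPM of it. Jmjd6 KO replicate 3 also lay apart on the first principal component, with a score of 83.9 against -28.0 to 9.4. It had the fewest genes detected, 16259 against 17022 to 18813. Its gene with the most counts was CYTB, and that of all other libraries was Rn45s. Markers of LSK cells were present in all 8 libraries, with Kit at 416 to 508 CPM, Ly6a, which encodes Sca1, at 86.1 to 227 CPM and Cd34 at 1140 to 1420 CPM. Markers of granulocytes and monocytes summed to 5490 CPM in wild type replicate 1 and to at most 2420 CPM elsewhere, and erythroid markers to 702 CPM there and at most 184 CPM elsewhere. Single genes made up much of both sums in that library. Mpo gave 3290 CPM of the first, and Car1 and Tfrc gave 339 and 236 CPM of the second. Camp, Ngp, Ltf and Csf1r were not highest in it, while the other genes of the granulocyte and monocyte list were. Its globin genes were at most 4.09 CPM. The T and NK cell list was 127 to 234 CPM in wild type libraries and 261 to 379 CPM in KO libraries, nearly all of it Nkg7, while the defining T cell marker Cd3e was at most 0.0631 CPM. B cell markers were 63.9 to 98.4 CPM in wild type libraries and 86.1 to 133 CPM in KO libraries, macrophage markers 107 to 222 and 94.8 to 238 CPM, and megakaryocyte markers 92.8 to 209 and 122 to 154 CPM. Sums can hide single genes: Vsig4, of the macrophage list, was 0.2 to 1.2 CPM in wild type and 3.18 to 11.4 CPM in KO libraries. Cd48, Cd79b and Nkg7 were also higher in every KO library. So was Camp, at low levels of 1.7 to 3.87 CPM against 0.904 to 1.32 CPM in wild type libraries. Ppbp, also at low levels, was lower, at 0 to 1.07 CPM against 1.31 to 3.31 CPM. Most markers overlapped. Those without overlap were a larger share of the tested markers than the 4.19% found over all tested genes, a difference that was not tested. Tested were 7 LSK, 8 erythroid, 10 granulocyte and monocyte, 5 B cell, 2 T and NK cell, 6 macrophage and 5 megakaryocyte genes. The other listed markers were left out of edgeR's test, and none of the tested markers passed it. The part of the markers in the results below was not tested, and in bulk RNA fewer cells of a type and less RNA per cell cannot be told apart.

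None of the 9 partners passed an adjusted p of 0.05 by edgeR, and limma voom and DESeq2 called none either. The background over all 13439 tested genes was 0.0595% called with edgeR, 0.491% with DESeq2 and 0.231% with limma voom. At an unadjusted p under 0.05 by edgeR there was 1 partner, U2af1, where the background was 6.06%. The KO and wild type libraries overlapped for all 9, and over all genes the groups did not overlap in 4.19%. Of the 9 log2 fold changes 5 lay above 0, against 49.6% of all tested genes, and their median was 0.02, against 0.00 over all genes. A share this near the background says nothing particular about the partners. What varied was the level between mice of the same genotype, and the partners differed in how much.

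**Figure D1:**
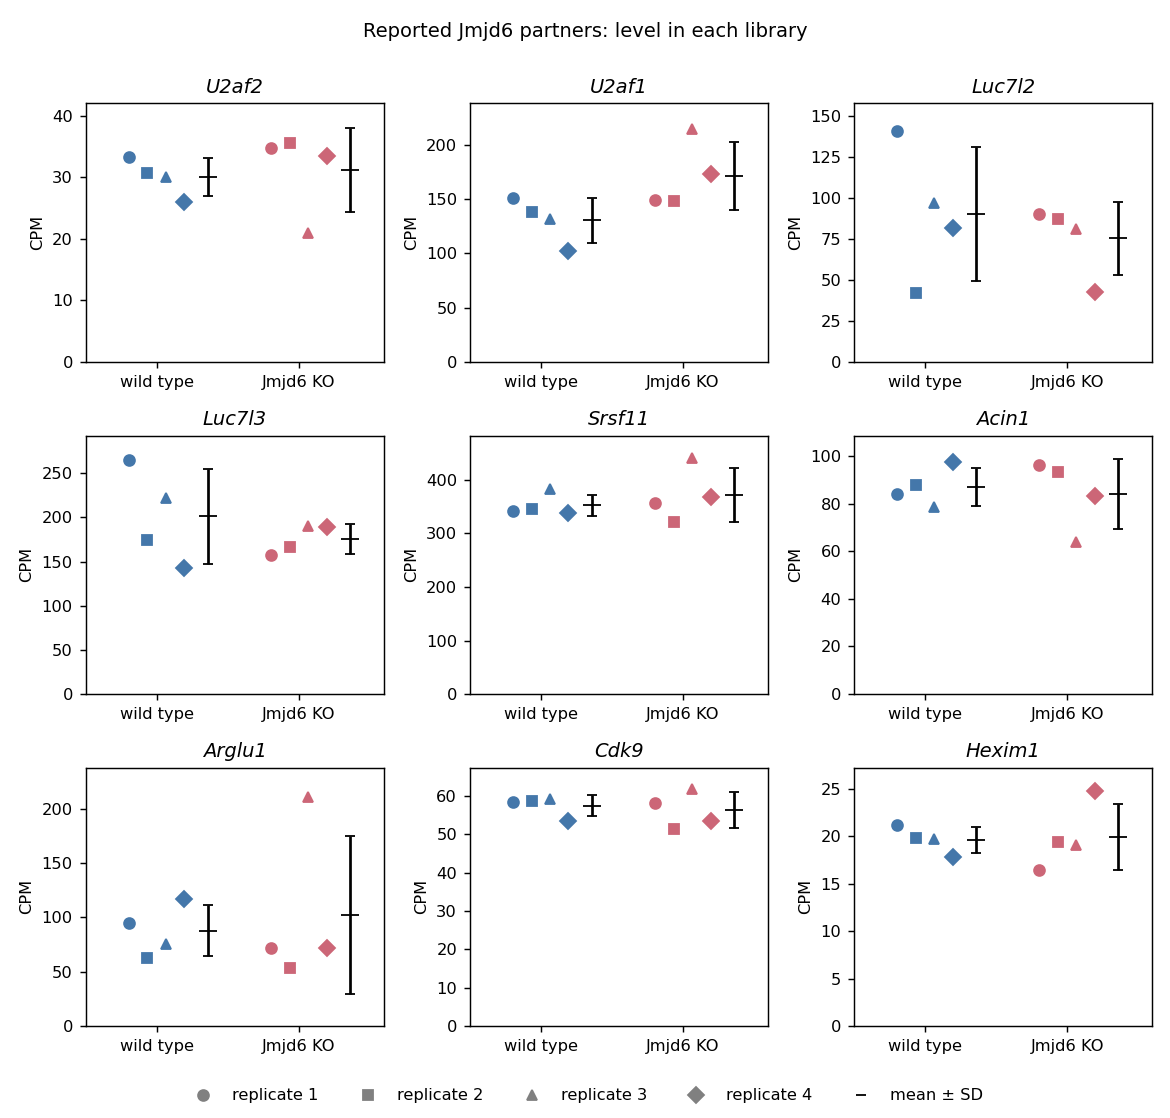
Level of each of the 9 genes in CPM (vertical axis, from 0) in the 4 wild type (blue) and 4 Jmjd6 KO (red) libraries; the marker shape gives the replicate number and the bar the mean ± SD. The groups overlap in every panel, Arglu1 reaches 211 CPM in Jmjd6 KO replicate 3, and Luc7l2 is near 42 CPM in 1 library of each group.

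U2af2 and U2af1 encode the large and small subunits of the U2 auxiliary factor; the large subunit binds the polypyrimidine tract and the small one the AG at the 3′ splice site. U2af2 (ENSMUSG00000030435.16, chromosome 7, 5062143 to 5079938, plus strand, GRCm38, the build that mm10 names) stood at 33.3, 30.7, 30.1 and 26.0 CPM in wild type mice 1 to 4 and at 34.7, 35.6, 21.0 and 33.4 CPM in KO replicates 1 to 4. In KO 3 libraries were above the highest wild type library and 1, replicate 3, was the lowest of all 8. The means were 30.1 ± 3.02 and 31.2 ± 6.84 CPM (SD, n = 4 per group), with a log2 fold change of 0.05 and a 95% interval from -0.39 to 0.49 (adjusted p = 0.967 by edgeR). The interval therefore spans 0.765-fold to 1.40-fold of the wild type level.

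U2af1 (ENSMUSG00000061613.13, chromosome 17, 31647081 to 31658892, minus strand) gave the largest difference of the 9. It was 151, 138, 132 and 102 CPM in wild type mice and 149, 148, 215 and 173 CPM in KO mice. Jmjd6 KO replicates 3 and 4 lay above all wild type libraries, replicates 1 and 2 lay just under wild type replicate 1, and wild type replicate 4 was the lowest. The means were 131 ± 20.7 and 171 ± 31.5 CPM (SD, n = 4 per group), a log2 fold change of 0.39 (SE 0.171, 95% interval 0.01 to 0.76). The unadjusted p of 0.043 ranked 702 among all tested genes and its adjusted p was 0.811 by edgeR; the two-sided exact permutation p on CPM was 0.0857. The difference was 0.26 without Jmjd6 KO replicate 3 and 0.16 in the 6 libraries with Y-linked counts, with adjusted p of 0.803 and 0.917 by edgeR.

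Since the subunits act as a pair, their counts were also compared within each library, which needs no scaling between libraries. The count ratio of U2af1 to U2af2 was 4.54, 4.49, 4.37 and 3.93 in wild type mice 1 to 4 and 4.30, 4.16, 10.3 and 5.17 in KO replicates 1 to 4. The wild type ratios were close together, KO replicates 1 and 2 fell among them, and KO replicate 3 was far above. The mean log2 ratio was 2.11 in wild type and 2.47 in KO, a difference of 0.36 with a two-sided exact permutation p of 0.286 and 0.857 after adjustment over the 3 ratios tested. Without Jmjd6 KO replicate 3 the difference was 0.06, and 0.02 in the 6 libraries with Y-linked counts. In that library U2af1 had 2823 counts, its highest, and U2af2 275 counts, its lowest.

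Luc7l2 and Luc7l3 are homologues of a yeast protein of the U1 particle, which recognises the 5′ splice site. Luc7l2 (ENSMUSG00000029823.16, chromosome 6, 38551334 to 38609470, plus strand) stood at 141, 42.2, 96.6 and 81.7 CPM in wild type mice and at 90.5, 87.4, 81.1 and 42.4 CPM in KO mice. Wild type replicate 2 and KO replicate 4 were low to the same extent, the other 3 KO libraries lay close together, and wild type replicate 1 was the highest. The means of 90.4 ± 40.8 and 75.4 ± 22.3 CPM (SD, n = 4 per group) gave a log2 fold change of -0.26 (95% interval -0.98 to 0.46, adjusted p = 0.891 by edgeR). Without wild type replicate 1 it was 0.05, and without wild type replicate 2 it was -0.50, with adjusted p of 0.984 and 0.882 by edgeR. Its interval allowed levels from 0.507-fold to 1.37-fold of wild type. Luc7l2 shares 2284 exon bases with Gm26699, a lincRNA gene on the opposite strand that has no row among the deposited counts. No source used here says whether counting used the strand, so reads of both may not have been told apart.

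Luc7l3 (ENSMUSG00000020863.15, chromosome 11, 94287890 to 94321988, minus strand) was 265, 175, 222 and 143 CPM in wild type mice and 157, 166, 190 and 189 CPM in KO mice. All KO libraries lay inside the wild type range, and wild type replicate 1 was again the highest. The log2 fold change was -0.20 (95% interval -0.61 to 0.21, adjusted p = 0.861 by edgeR) and -0.02 without wild type replicate 1, the library with the highest granulocyte and erythroid marker sums. The count ratio of Luc7l2 to Luc7l3 was 0.532, 0.241, 0.434 and 0.571 in wild type and 0.577, 0.528, 0.427 and 0.224 in KO. Each genotype held 1 library with a ratio far below the rest, and the groups covered nearly the same range. The log2 ratio differed by -0.03 (exact permutation p = 0.829, adjusted 0.886 over the 3 ratios).

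**Figure D2:**
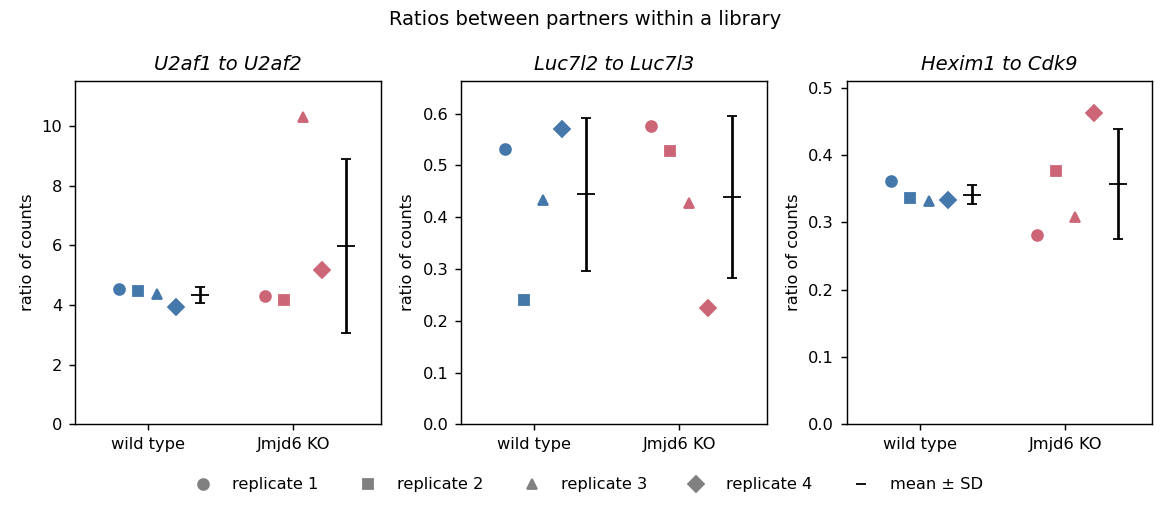
Ratio of raw counts within each library (vertical axes, from 0) for U2af1 to U2af2, Luc7l2 to Luc7l3 and Hexim1 to Cdk9, by genotype; marker shapes give the replicate number and bars the mean ± SD of 4 libraries. The U2af1 to U2af2 ratio is between 3.93 and 5.17 in 7 libraries and 10.3 in Jmjd6 KO replicate 3.

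Srsf11, Acin1 and Arglu1 encode nuclear proteins with arginine-rich stretches. SRSF11 is an SR-related protein, Acinus (ACIN1) is a subunit of the ASAP complex that joins the exon junction complex, and ARGLU1 is a splicing modulator and transcriptional coactivator. Srsf11 (ENSMUSG00000055436.18, chromosome 3, 158010473 to 158036639, minus strand) had the highest CPM of the 9, at 342, 346, 382 and 339 in wild type and 356, 321, 441 and 368 in KO. KO replicate 3 lay above the wild type range and KO replicate 2 below it. The log2 fold change was 0.08 (95% interval -0.23 to 0.38, adjusted p = 0.924 by edgeR) and -0.01 without KO replicate 3.

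Acin1 (ENSMUSG00000022185.19, chromosome 14, 54642161 to 54686931, minus strand) was 83.9, 87.7, 78.7 and 97.4 CPM in wild type mice and 96.3, 93.3, 63.7 and 83.0 CPM in KO mice. Here KO replicate 3 was the lowest library and the other 3 KO libraries lay inside the wild type range. The log2 fold change was -0.05 (95% interval -0.40 to 0.30, adjusted p = 0.957 by edgeR) and 0.06 without KO replicate 3. Acin1 shares 463 exon bases with 1700123O20Rik on the opposite strand, a gene at 68.8 to 117 CPM. It shares 125 with Gm17606, which has no row among the deposited counts. Reads of these genes may not have been told apart.

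Arglu1 (ENSMUSG00000040459.11, chromosome 8, 8665075 to 8690521, minus strand) varied most, 3.93-fold between its highest and lowest library. It was 95.1, 63.1, 75.6 and 117 CPM in wild type mice 1 to 4 and 72.1, 53.7, 211 and 72.3 CPM in KO replicates 1 to 4. In each genotype the highest library was the one with Xist and 0 Y-linked counts, wild type replicate 4 and KO replicate 3. The coefficient of variation was 27.0% in wild type and 71.3% in KO. The log2 fold change was 0.22 over all 8 libraries (95% interval -0.61 to 1.05, adjusted p = 0.918 by edgeR). It turned to -0.41 without KO replicate 3 and to -0.24 in the 6 libraries with Y-linked counts, with adjusted p of 0.765 and 0.917 by edgeR, so the sign rested on that library. Xist-carrying libraries number 1 per genotype, so no test within them can be made. With Y-linked expression as a covariate over all 8 libraries, the log2 fold change of Arglu1 was 0.01 (SE 0.224, adjusted p = 0.991 by edgeR).

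Cdk9 and Hexim1 encode the kinase of P-TEFb and the protein that inhibits it. Cdk9 (ENSMUSG00000009555.16, chromosome 2, 32705784 to 32713076, minus strand) was the steadiest of the 9, at 58.5, 58.7, 59.3 and 53.5 CPM in wild type mice and 58.2, 51.5, 61.9 and 53.5 CPM in KO mice. Its highest library was 1.20-fold above its lowest. The means were 57.5 ± 2.69 and 56.3 ± 4.65 CPM (SD, n = 4 per group), with a log2 fold change of -0.03 (95% interval -0.34 to 0.28, adjusted p = 0.972 by edgeR). Cdk9 at 0.79-fold to 1.21-fold of wild type lay inside that interval.

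Hexim1 (ENSMUSG00000048878.6, chromosome 11, 103116231 to 103119725, plus strand) had the lowest CPM, at 21.2, 19.8, 19.7 and 17.8 in wild type and 16.4, 19.4, 19.1 and 24.8 in KO. Jmjd6 KO replicates 1 and 4 lay below and above the wild type range. The log2 fold change was 0.02 (95% interval -0.39 to 0.44, adjusted p = 0.985 by edgeR). The count ratio of inhibitor to kinase, Hexim1 to Cdk9, was 0.362, 0.337, 0.332 and 0.334 in wild type and 0.281, 0.377, 0.308 and 0.463 in KO. The SD of the ratio was 0.0141 in wild type and 0.0812 in KO, a spread that was not tested. The log2 ratio differed by 0.04 (exact permutation p = 0.886, adjusted 0.886 over the 3 ratios) and by -0.09 without KO replicate 4.

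**Figure D3:**
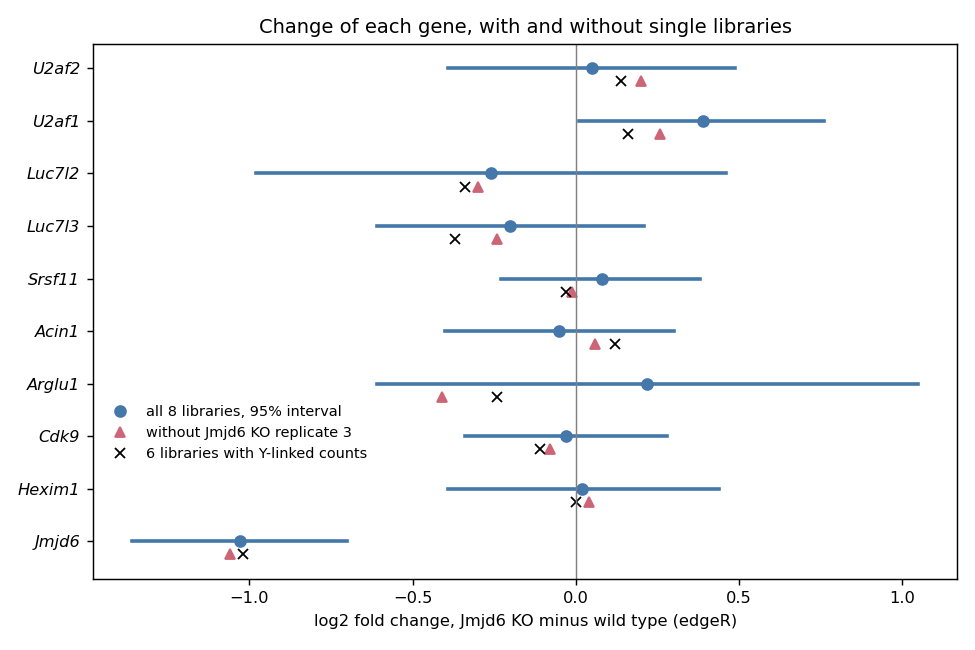
Log2 fold change of each gene, Jmjd6 KO minus wild type, from edgeR over all 8 libraries with its 95% interval (circles and lines), without Jmjd6 KO replicate 3 (triangles) and in the 6 libraries with Y-linked counts (crosses). Jmjd6 lies at -1.03, U2af1 has the only interval of the 9 partners that does not reach 0, and Arglu1, Srsf11 and Acin1 change sign without Jmjd6 KO replicate 3.

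Levels of different genes were compared per kilobase of annotated exon. In wild type the order was U2af1 at 50.4 ± 7.97 CPM per kilobase (SD, n = 4), Srsf11 at 41.7 ± 2.36, Luc7l3 at 27.7 ± 7.35, Arglu1 at 16.0 ± 4.33, Cdk9 at 12.5 ± 0.584, Acin1 at 8.26 ± 0.749, Luc7l2 at 7.48 ± 3.38, U2af2 at 7.31 ± 0.735 and Hexim1 at 5.61 ± 0.394. Among neighbours in this order the wild type libraries did not overlap between Srsf11 and Luc7l3, between Cdk9 and Acin1 and between U2af2 and Hexim1, and overlapped in the others. In KO the order of the CPM per kilobase was the same except that U2af2, at 7.57, stood above Luc7l2, at 6.24. The order depends on the length used. With the median length of the annotated transcripts, chosen after seeing the data, Srsf11 led at 375 CPM per kilobase before U2af1 at 181, and Acin1, at 86.8, stood above Arglu1, at 27.5, while Hexim1 remained the lowest at 5.61. With either length U2af1 stood above U2af2, at 181 against 20.7 CPM per kilobase by the second.

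Splicing factor genes are known to control their own output through retained introns and exons that send the transcript to nonsense-mediated decay, and the GENCODE M21 annotation was read for such forms. At least 1 retained-intron transcript is annotated for 8 of the 9 genes (88.9%), against 59.7% of 12167 tested protein-coding genes, and at least 1 nonsense-mediated decay transcript for 7 of 9 (77.8%), against 29.3%. Srsf11 has 11 retained-intron forms among 19 transcripts and Acin1 9 among 26, while Hexim1 has a single transcript and no such form. Median transcript numbers were 9 for the 9 genes and 5 for the background, so more transcripts of any kind are annotated for them. These are properties of the annotation; a gene total adds reads from productive and unproductive forms together.

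Variation between mice was not shared by all partners. After the mean of each genotype was removed, Pearson's r of log2 CPM over the 8 libraries ranged from -0.91 (U2af2 with Arglu1) to 0.79 (Srsf11 with Cdk9) over the 36 pairs, with a median of 0.07, values given as a description. Without Jmjd6 KO replicate 3, U2af1 and Luc7l3 had r of 0.861, against 0.761 with it. Srsf11 and Cdk9 went from 0.794 to 0.559, Arglu1 and Srsf11 from 0.75 to 0.051, and U2af2 and Acin1 from 0.686 to -0.457. For U2af2 with Arglu1 r was not computed without that library, in which both genes lay far from the other KO libraries. Of 10358 other genes compared in the same way, the 1 most like each partner was Chp1 for U2af2 (r = 0.996), Wipi1 for U2af1 (0.969), Itga4 for Luc7l2 (0.997), Agfg1 for Luc7l3 (0.961), Slc35b3 for Srsf11 (0.985), Cotl1 for Acin1 (0.987), Rpgrip1 for Arglu1 (0.998), 1700094D03Rik for Cdk9 (0.976) and Pnp for Hexim1 (0.994). These are the highest of many values over few libraries.

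The genes that work beside the partners were followed as 5 lists, 102 genes in all, of which 101 were tested. None passed edgeR's adjusted p of 0.05, DESeq2's or limma voom's, against the same backgrounds of 0.0595%, 0.491% and 0.231%, and 4 had an unadjusted p under 0.05 by edgeR, where the background of 6.06% stands. Their median log2 fold change was -0.04, with 46 above 0 and 55 below. For 3′ splice site recognition, with SF1, the SF3 complexes and other U2AF-related factors, 14 of 27 tested lay above 0 with a median of 0.02. Sf3b5, of the SF3b complex, was 84.4 ± 5.66 CPM in wild type mice and 102 ± 17.6 CPM in KO mice (log2 fold change 0.28), and Uhmk1, a kinase of SF1, 12.0 ± 2.17 and 8.19 ± 2.63 CPM (-0.56), with adjusted p of 0.832 and 0.817 by edgeR.

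For U1 and 5′ splice site recognition, 4 of 11 lay above 0 with a median of -0.04. Tia1, which helps U1 bind weak sites, was 256, 227, 276 and 263 CPM in wild type mice and 206, 206, 229 and 169 CPM in KO mice. Only KO replicate 3 reached into the wild type range (log2 fold change -0.34, unadjusted p = 0.0342, adjusted p = 0.786 by edgeR). Prpf40b, a U1-associated protein, gave -0.51 with an adjusted p of 0.832 by edgeR. In the ASAP, PSAP and exon junction list 6 of 11 lay above 0 with a median of 0.11. Pnn encodes pinin, which takes the place of Acinus in PSAP. It was 215, 182, 180 and 190 CPM in wild type mice and 169, 170, 132 and 147 CPM in KO mice, the 1 companion gene of 101 tested without overlap between groups, where the background is 4.19% (log2 fold change -0.31, adjusted p = 0.811 by edgeR). Rbm8a, a core subunit of the junction complex, gave 0.24 with an adjusted p of 0.832 by edgeR.

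Among SR proteins and their kinases 8 of 22 lay above 0 with a median of -0.07. Tra2b, a splicing activator, was 585 ± 37.2 and 660 ± 63.2 CPM (log2 fold change 0.17), and the SR kinase gene Clk2 30.4 ± 4.26 and 23.4 ± 6.98 CPM (-0.38), with adjusted p of 0.839 and 0.832 by edgeR. In the P-TEFb, 7SK and pause release list 14 of 30 lay above 0 with a median of -0.02. The smallest p there was of Hexim2, the paralogue of Hexim1, at 5.74, 4.06, 2.51 and 4.48 CPM in wild type mice and 5.72, 7.61, 8.31 and 9.76 CPM in KO mice. Its groups met only between wild type replicate 1 and KO replicate 1, and the log2 fold change was 0.90 (SE 0.312, unadjusted p = 0.0137, adjusted p = 0.746 by edgeR). Mllt3, a reader subunit of the super elongation complex, was 52.6 ± 6.13 and 38.4 ± 5.66 CPM (log2 fold change -0.45, adjusted p = 0.772 by edgeR).

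**Figure D4:**
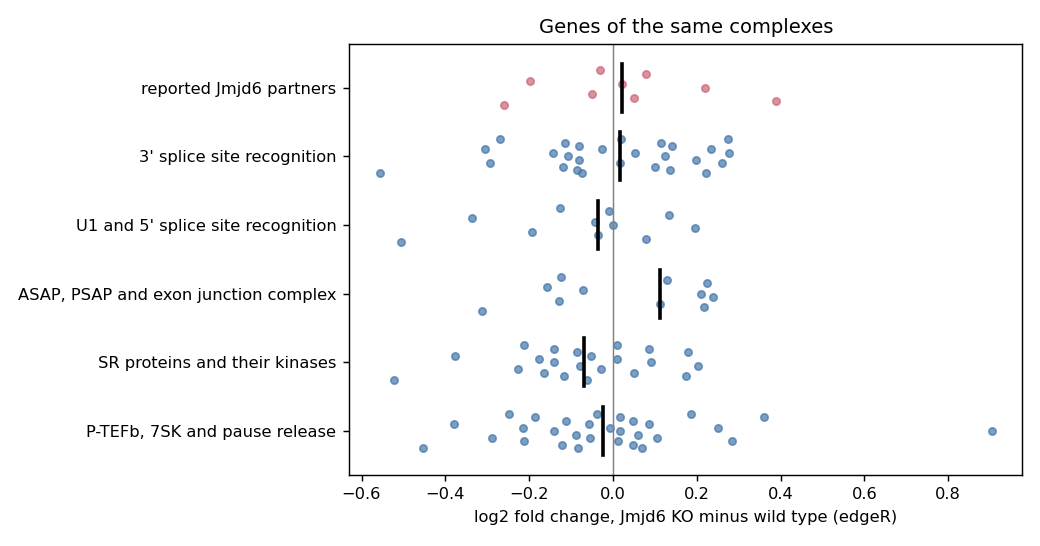
Log2 fold change, Jmjd6 KO minus wild type (horizontal axis), of the 9 reported Jmjd6 partners (red) and of the tested genes of 5 companion lists (blue), 1 point per gene with a black line at the median. All medians lie between -0.07 and 0.11, and Hexim2 is the point at 0.90.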

How the data were processed

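The authors deposited raw counts, whole numbers by gene symbol; per the submitters' processing notes, reads were aligned with HISAT2 to mm10. No source used here names the aligner's version, the counting tool or its strand setting. Columns were matched to mice by genotype and replicate number. The whole table was fitted with edgeR 4.0.16 in R 4.3.3 (quasi-likelihood test, no covariate, TMM scaling, filterByExpr with min.count 10 and min.total.count 15, 13439 genes tested), with Benjamini-Hochberg adjustment over all of them and a threshold of 0.05. The common biological coefficient of variation was 27.8%. Log2 CPM used a prior count of 2, and count ratios 0.5 added counts. Replicates of a group differed beyond counting noise: the chi-square per degree of freedom was 6.89 between Jmjd6 KO replicates 1 and 2 and 16.36 to 93.47 between the others, so each was counted as 1 sample. Pairs with Jmjd6 KO replicate 3 gave the largest values, 81.26 to 93.47. The script was tested on simulated counts. Exact permutation tests are two-sided, with 0.0286 the smallest p possible for 4 against 4.

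Positions, exon lengths and transcript types came from GENCODE M21 (GRCm38). The genes and lists were chosen with earlier results of these data known. Named companion genes are the 2 of smallest p per list with a mean log2 CPM above 1, and the most alike gene was sought above a mean log2 CPM of 3. Alternatives were DESeq2 1.42.0, limma 3.58.1 voom with sample weights, other scalings, filters and thresholds, a replicate block, a Y-linked covariate, a trend with transcript length and expression removed, and fewer libraries. No protein sequence was used here, and no sequence is printed. Some genes of the lists are not reported here by name.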

Additional observations from a re-analysis of the deposited data

Results flagged for a closer look

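In 26 groups of 4 libraries, of which chance would mark about 5%, a library lay far from the other 3 of its group in 6 cases. Jmjd6 KO replicate 3 accounted for 3: Arglu1 at 211 CPM against 53.7 to 72.3 in the other KO libraries, U2af2 at 21.0 CPM against 33.4 to 35.6, and the U2af1 to U2af2 count ratio at 10.3 against 4.16 to 5.17. In wild type, Srsf11 was at 382 CPM in replicate 3 against 339 to 346, Cdk9 at 53.5 CPM in replicate 4 against 58.5 to 59.3, and the Hexim1 to Cdk9 count ratio at 0.362 in replicate 1 against 0.332 to 0.337. The wild type gaps were small in size. Values of 1 library enter more than 1 of these groups, so the cases are not independent.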

How the results depend on the processing

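None of the 9 partners and none of the companion genes passed under any of the 19 alternatives run. U2af1 stayed above 0 throughout, between 0.16 and 0.49, and Luc7l3 below 0, between -0.37 and -0.02. Signs of differences that never passed turned as follows, in log2 units, and the cause was not tested. Without Jmjd6 KO replicate 3, Arglu1 was -0.41, Srsf11 -0.01 and Acin1 0.06. In the 6 libraries with Y-linked counts, Arglu1 was -0.24, Srsf11 -0.03, Acin1 0.12, Hexim1 0.00 (just below 0) and the Luc7l2 to Luc7l3 ratio 0.10. Without both libraries that stood apart (wild type replicate 1 and Jmjd6 KO replicate 3), Arglu1 was -0.37, Srsf11 -0.03, Acin1 0.05, Luc7l2 0.00 (just above 0) and that ratio 0.07. By limma voom, Arglu1 was -0.36, Srsf11 -0.08, Acin1 0.12 and Hexim1 -0.07. With library size only, Hexim1 was -0.03, and after removal of the trend on length and level Acin1 was 0.02. Without wild type replicate 1, Luc7l2 was 0.05 and the Luc7l2 to Luc7l3 ratio 0.08. Without wild type replicate 4, U2af2 was -0.01, Acin1 0.01, Hexim1 -0.02 and that ratio 0.12. Without Jmjd6 KO replicate 2, Cdk9 was 0.03 and U2af2 0.00 (just below 0). Without Jmjd6 KO replicate 4, Hexim1 was -0.10, that ratio 0.26 and the Hexim1 to Cdk9 ratio -0.09. With single libraries left out Arglu1 ran from -0.41 to 0.46, Hexim1 from -0.10 to 0.13, Luc7l2 from -0.50 to 0.05, U2af2 from -0.01 to 0.20, the Luc7l2 to Luc7l3 ratio from -0.30 to 0.26 and the Hexim1 to Cdk9 ratio from -0.09 to 0.15.

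Jmjd6 lay between -1.11 and -0.99 in every fit. By edgeR its call was lost with a replicate block (-1.02, adjusted p = 0.402), in the 6 libraries (-1.02, 0.105), without both libraries that stood apart (-1.11, 0.0629) and with single libraries left out other than Jmjd6 KO replicate 3 (-1.06 to -0.99, up to 0.254). The count of 8 genes called over the whole table was 3 with the replicate block, 2 to 8 with single libraries left out, 4 in the 6 libraries, 4 without both libraries that stood apart, 31 by limma voom, 66 by DESeq2 and 14 with the Y-linked covariate. Replicate numbers only name the mice. Libraries of the 2 genotypes were correlated on log2 CPM after the genotype mean of each gene was removed. By this measure same-numbered libraries gave 0.032, -0.012, -0.184 and -0.192, so the numbers gave no sign of a pairing. Differently numbered libraries of the 2 genotypes ran from -0.291 to 0.423, the highest being wild type replicate 4 with Jmjd6 KO replicate 3. These are the libraries with Xist and 0 Y-linked counts, and the part of this trait in the value was not tested. Wild type replicate 2 and Jmjd6 KO replicate 4 gave 0.386. A pairing or batch under other numbers was not tested.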
